A study of Mus musculus with 12 samples.

Results

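The plasma membrane carriers described here are 9 genes of the mouse heart: Slc7a11, Slc7a3, Slc7a5, Slc3a2, Slc7a1, Slc1a4, Slc1a5, Slc38a2 and Slc6a9. They were chosen by symbol and not by a threshold, but with earlier results of these data known. All 9 were found among the 51911 features of the gene count tables through their versioned Ensembl identifiers. Total RNA from hearts was sequenced in 12 libraries that form 4 groups of 3. The genotypes are a knockout of Ptcd1, which encodes a mitochondrial pentatricopeptide repeat protein (KO), and wild type (WT). RNA of each genotype was sequenced untreated or after CMC, a carbodiimide that modifies pseudouridine in isolated RNA and is therefore a treatment of RNA and not of the animal. All groups share removal of cytoplasmic ribosomal RNA. For strain, age, sex, the construction of the knockout allele and the promoter of any Cre, the labels say nothing. The labels do not say whether replicates come from separate animals, so each p-value measures only the spread between these libraries. Untreated and CMC libraries carry the same numbers, and whether they share a heart is not said either. The questions are how knockout hearts differ from wild-type hearts in the mRNA of these carriers, and whether CMC changes that difference.

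Amino acids cross the plasma membrane through carriers that differ in substrate and in driving force. Some exchange 1 amino acid for another, such as the heterodimers in which a light chain of the SLC7 family carries the substrate and the glycoprotein SLC3A2 brings it to the membrane. Others are driven by the sodium gradient, such as SLC38A2, which accumulates small neutral amino acids, or by membrane potential, such as the cationic carriers. Many of these genes are textbook targets of ATF4, the transcription factor of the integrated stress response, which binds composite sites together with C/EBP proteins. Slc7a11 is also a textbook target of NRF2, which binds antioxidant response elements.

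Nuclear genes held 2683284 to 3187748 of the 10389398 to 12462093 counts in each library, and mitochondrial transcripts held a mean of 71.2% to 75.2% of counts per group. Ptcd1 itself had 28, 17 and 19 counts in untreated KO libraries and 78, 71 and 74 in untreated WT libraries, and 23, 21 and 20 against 79, 103 and 74 after CMC. The KO libraries were thus lower in every case, and whole-heart RNA of the knockout still held Ptcd1 reads. WT replicate 3 after CMC stood apart from its group. Its chi-square per gene against the other replicates was 1.96 and 2.28, while all other pairs of replicates gave 1.11 to 1.35. Several counts after CMC are therefore also given without it, or as a range over fits that leave out 1 library. Defining markers of cardiomyocytes (Myh6, Tnnt2, Tnni3, Actc1, Myl2, Ryr2 and Ttn) summed to 195701 to 199077 per 1000000 nuclear counts in untreated WT libraries and 119537 to 119707 in untreated KO libraries, and all 7 of 7 were lower in KO. Summed macrophage markers ran from 285 to 301 per 1000000 in WT and from 368 to 385 in KO, with 4 of 8 tested markers higher and 0 lower. Endothelial markers gave 1 higher and 4 lower of 8, fibroblast markers 2 higher and 3 lower of 6, mural markers 0 higher and 3 lower of 5, and erythroid markers 0 higher and 4 lower of 5. Glial and neuronal markers gave 1 higher and 1 lower of 2 tested. Over all genes tested in untreated libraries 29.1% were called higher and 28.7% lower, and marker counts this small are a description. Neutrophil markers were near 0, with a sum of 1.73 to 2.47 per 1000000 in WT and 3.08 to 3.85 in KO, and none was tested. No marker was at 0 in all libraries. In bulk RNA fewer cells of a type and less RNA per cell cannot be told apart, and the part of these marker differences in the values below was not tested.

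Promoter sequence is shown to give the letters of the sites named above. Whether such sites act in these hearts was not tested. RefSeq windows of 300 bases, from 250 before to 50 after a start on GRCm38.p6, were at hand for 6 of the 9 members, in 9 windows. The core TGATGNAA of the ATF4 composite site, searched on both strands, was in 2 members, Slc7a11 and Slc1a4, against 4.51% of 27025 genes and 3.97% of 32851 windows. Slc7a11 held 2 matches 8 letters long, on opposite strands, which start 66 and 47 bases before the start, and Slc1a4 held 1 across the start. The core TGACNNNGC of the antioxidant response element was in 3 members, Slc7a1, Slc38a2 and Slc6a9, against 13.99% of genes and 12.4% of windows. Slc7a1 and Slc6a9 had more than 1 window each, which gives more chances of a match. The Slc6a9 windows lie inside the annotated span of the gene, where other isoforms are transcribed, and are not printed. It was not in the Slc7a11 window, which says only that these letters are not in these 300 bases. The 2 motifs overlapped nowhere in the printed sequences. Capitals mark the matches to either motif, each sequence reads 5′ to 3′ along the strand of the gene, and a match is a description of letters and not a bound site.
Slc7a11, chr3:50443633-50443699, minus strand, TGATGNAA: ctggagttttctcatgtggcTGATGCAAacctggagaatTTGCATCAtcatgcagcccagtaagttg
Slc1a4, chr11:20332699-20332728, minus strand, TGATGNAA: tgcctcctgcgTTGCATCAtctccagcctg
Slc7a1, chr5:148399905-148399935, minus strand, TGACNNNGC: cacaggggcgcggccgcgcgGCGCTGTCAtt
Slc38a2, chr15:96699729-96699775, minus strand, TGACNNNGC: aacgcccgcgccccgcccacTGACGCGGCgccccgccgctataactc

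In untreated hearts 8 of the 9 carrier genes were higher in KO than in WT, and Slc1a5 did not pass the test. The same 8 were called, and none was lower, by edgeR's quasi-likelihood test with Benjamini-Hochberg adjustment over 12195 genes at 0.05. Slc7a11, Slc7a3, Slc7a5 and Slc6a9 had too few WT counts to be tested between the WT groups. They thus entered the tests of KO against WT through their KO counts, and their adjusted p-values are given as a description. A call of higher was common, at 29.1% of all genes tested, and 28.7% were lower. No library of KO overlapped WT for these 8 genes, a pattern that 30.8% of all genes tested showed in that direction and 30.5% in the other. The median log2 fold change of the 9 was 3.26, that of Slc1a4, against a median of -0.00 over all genes tested. It is the same with the near-zero genes Slc7a11 and Slc7a3 placed at their bounds, since both stay above it. Because the 9 were chosen with earlier results of these data known, their count and median beside all genes are a description, here and after CMC.

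Slc7a11 (ENSMUSG00000027737.10, mm10 chr3:49892526-50443614, minus strand, protein coding) encodes xCT, the light chain that imports cystine in exchange for glutamate. Its raw counts were 1, 1 and 1 in WT and 309, 342 and 291 in KO. WT libraries were thus at the edge of detection, and every KO library lay far above them. Scaled to nuclear library size, the group sums of 942 and 3 counts gave a ratio of 284 with a 95% counting interval of 96.9 to 1380, which covers counting error only. The adjusted p of edgeR was 2.97e-94. A stretch of up to 375 bases in the Slc7a11 transcripts is near-identical to transcripts of 11 other genes, among them Tuba1a, Tuba1b and Tuba1c, so reads there are uncertain. Tuba1a and Tuba1b had 177, 195 and 165 and 104, 95 and 115 counts in WT, while Slc7a11 had 1 per library there. In KO they had 299, 237 and 254 and 162, 167 and 147 counts. Both were called higher by edgeR, with log2 fold changes of 0.42 (adjusted p 4.58e-06) and 0.46 (adjusted p 8.0e-05).

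Among the SLC7 light chains for neutral amino acids, Slc7a5 (ENSMUSG00000040010.10, chr8:121881150-121907694, minus strand) encodes LAT1, which imports leucine and other large neutral amino acids in exchange for intracellular ones. It had 6, 3 and 6 counts in WT and 189, 198 and 203 in KO. The groups did not overlap and differed 34.9-fold, a log2 fold change of 5.12 (SE 0.38, adjusted p 8.41e-69). It overlaps the opposite-strand gene model Gm20388, with no shared exon bases.

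Slc3a2 (ENSMUSG00000010095.13, chr19:8706882-8723369, minus strand) encodes the heavy chain of the 4F2 antigen, CD98, the partner of both light chains just described. Its counts were 58, 62 and 64 in WT and 388, 394 and 359 in KO. All KO libraries lay above all WT libraries, by 5.61-fold, and the log2 fold change was 2.49 (SE 0.12, adjusted p 2.44e-70). Stretches of up to 182 bases of its transcripts are near-identical to those of 144 other genes, which makes reads in that stretch uncertain.

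The cationic carriers import arginine, lysine and ornithine. Slc7a1 (ENSMUSG00000041313.14, chr5:148327410-148399904, minus strand), the widely expressed member, had 94, 102 and 102 counts in WT and 397, 407 and 416 in KO. WT was low and KO high in every library, a 3.71-fold difference with a log2 fold change of 1.89 (SE 0.09, adjusted p 3.89e-59). A stretch of at most 96 bases of Slc7a1 is near-identical to 5 other genes. Slc7a3 (ENSMUSG00000031297.14, chrX:101079210-101086020, minus strand), a cationic carrier best known from brain, had 0, 1 and 0 counts in WT and 87, 85 and 86 in KO. The KO libraries were close to each other, and the WT group held a single read. The ratio of 258 to 1 counts was 233 after scaling, with a 95% counting interval of 41.5 to 9254, and the adjusted p was 1.85e-44. This interval overlaps that of Slc7a11, so the changes of both genes cannot be ranked.

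Carriers of small neutral amino acids and glycine also moved. Slc38a2 (ENSMUSG00000022462.6, chr15:96687394-96699698, minus strand) encodes SNAT2, the sodium-coupled carrier of alanine, glutamine and similar amino acids. It had 440, 408 and 429 counts in WT and 1598, 1539 and 1535 in KO. These groups were narrow and apart, and differed 3.32-fold, with a log2 fold change of 1.73 (SE 0.05, adjusted p 4.65e-101). Slc1a4 (ENSMUSG00000020142.12, chr11:20302180-20332713, minus strand), a sodium-dependent exchanger of alanine, serine and cysteine, had 9, 11 and 14 counts in WT and 130, 112 and 121 in KO. Again the groups did not overlap, and KO was 9.59-fold higher (log2 fold change 3.26, SE 0.26, adjusted p 4.36e-41). Slc6a9 (ENSMUSG00000028542.17, chr4:117834506-117875198, plus strand) encodes the sodium- and chloride-dependent glycine carrier GlyT1.

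Slc6a9 had 5, 8 and 10 counts in WT and 88, 107 and 98 in KO, an 11.4-fold difference with a log2 fold change of 3.51 (SE 0.32, adjusted p 1.15e-36). The highest WT library was far below the lowest KO library. Slc6a9 shares 1986 exon bases with genes on the opposite strand, and whether strand was used in counting is unknown here, so its counts are uncertain. The opposite-strand neighbour Ccdc24 had 1, 0 and 0 counts in WT and 3, 0 and 0 in KO. B4galt2, the other protein-coding neighbour there, had 19, 17 and 19 counts in WT and 13, 24 and 17 in KO (log2 fold change -0.17, SE 0.28, adjusted p 0.639).

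Slc1a5 (ENSMUSG00000001918.17, chr7:16781340-16798274, plus strand) encodes ASCT2, the sodium-dependent exchanger of glutamine and other neutral amino acids, and is the paralog of Slc1a4. Its counts were 77, 63 and 51 in WT and 58, 63 and 60 in KO. The KO values lay inside the range of WT, and the log2 fold change of -0.22 (SE 0.16, adjusted p 0.226) did not pass the test, which does not show that the groups were alike. The authors' deposited table gives a log2 fold change of -0.20 with an adjusted p of 0.582 for Slc1a5, and from 1.75 for Slc38a2 to 8.17 for Slc7a11 for the other members.

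**Figure D1:**
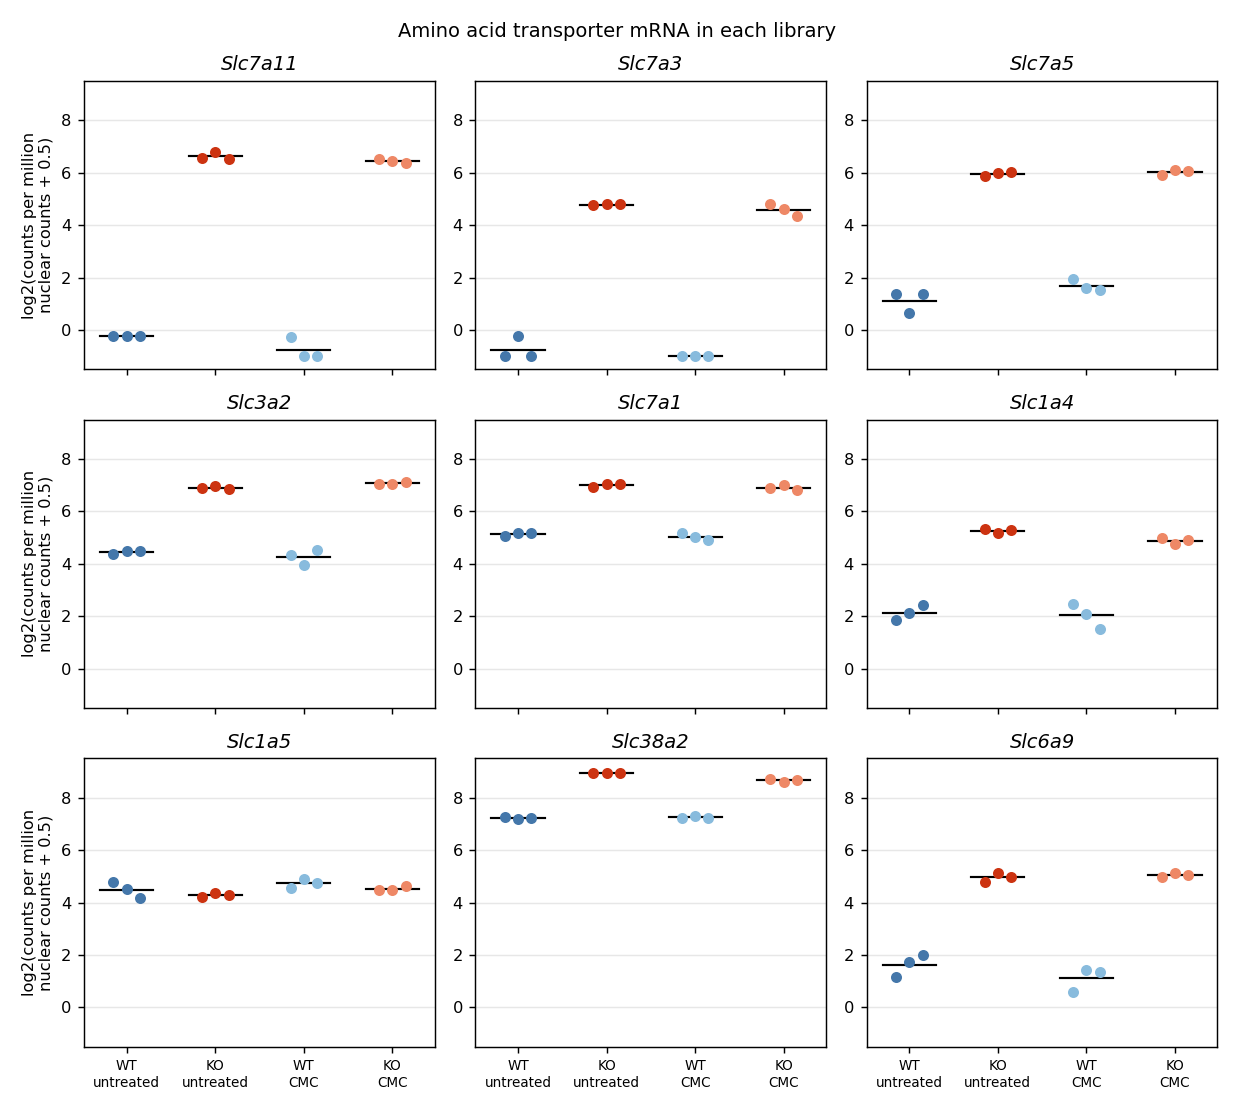
Log2 of the counts per 1000000 nuclear counts plus 0.5 for each of the 9 genes in each library, by group, with points for the 3 libraries and a black line for their mean. For 8 genes all KO points lie above all WT points in both the untreated and the CMC groups, while the points of Slc1a5 overlap.

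Levels of different genes can be compared only per length, so the counts per 1000000 nuclear counts were divided by the exon length in kilobases that the count table lists. By this level untreated WT hearts ranked Slc38a2 first, at 32.1 ± 0.951 (SD, n = 3) per kilobase per 1000000. Slc3a2 at 6.06 ± 0.313 and Slc1a5 at 5.32 ± 1.08 followed with overlapping ranges, then Slc7a1 at 3.005 ± 0.155 and Slc1a4 at 1.006 ± 0.221. Slc6a9 at 0.520 ± 0.170 and Slc7a5 at 0.469 ± 0.159 overlapped. Slc7a3 at 0.0311 ± 0.0538 and Slc7a11 at 0.0250 ± 0.000247 were lowest and overlapped too. The annotated exons of Slc7a11 span 13922 bases, so its level per length is low for its counts. The listed length covers all annotated exons of a gene, and the isoforms present in heart were not resolved. The order of levels and the shares given below therefore depend on the annotation.

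In untreated KO hearts the order of levels changed below the second place. Slc38a2 at 106.2 ± 0.666 per kilobase per 1000000 and Slc3a2 at 34.0 ± 1.75 again led. Slc7a5 came next at 16.7 ± 0.921, then Slc7a1 at 11.1 ± 0.467 and Slc1a4 at 9.72 ± 0.523. Slc7a3 at 7.17 ± 0.0806, Slc7a11 at 7.12 ± 0.668 and Slc6a9 at 6.003 ± 0.707 followed, and neighbours among these 3 overlapped. Slc1a5 was last at 4.56 ± 0.283. The summed level of the 9 was 48.5 ± 1.02 per kilobase per 1000000 in WT and 202.6 ± 3.67 in KO, and the share of Slc38a2 in it was 66.1% ± 0.772 and 52.4% ± 0.761.

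**Figure D2:**
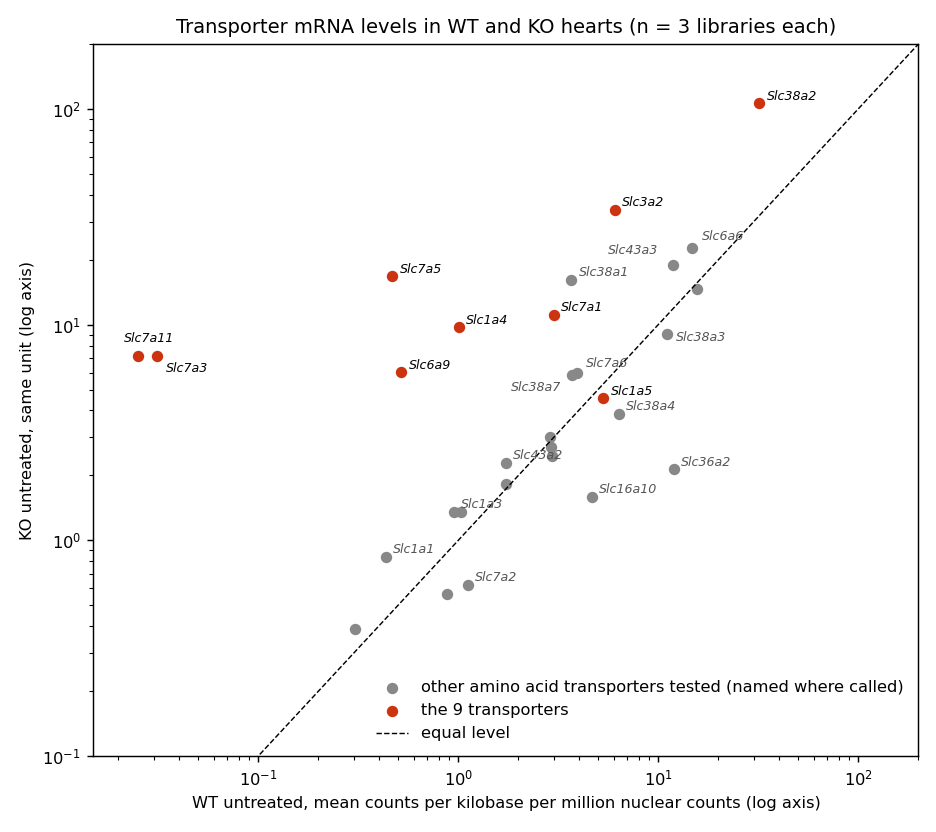
Mean level in untreated KO libraries against that in untreated WT libraries, in counts per kilobase per 1000000 nuclear counts on log axes (n = 3 libraries each), for the 9 carriers in red and other tested amino acid transporters in grey, named where called. Apart from Slc1a5 at 5.32 and 4.56, the red points lie above the dashed line of equal level, most of all Slc7a11 and Slc7a3 at the far left.

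Since SLC3A2 serves as the common heavy chain, its level was set beside the sum of the 6 light chains known to pair with it, Slc7a5, Slc7a6, Slc7a7, Slc7a8, Slc7a10 and Slc7a11. In untreated WT libraries Slc3a2 was at 5.70, 6.20 and 6.28 per kilobase per 1000000 and the light chains summed to 8.64, 7.86 and 8.69. In untreated KO libraries Slc3a2 was at 33.8, 35.8 and 32.3 and the light chains summed to 31.8, 34.3 and 36.0. The level of the heavy chain over the sum of its light chains was 0.724 ± 0.0640 in WT and 1.003 ± 0.0920 in KO, in ranges that did not overlap. With 3 libraries a group an exact permutation test of it cannot fall below a two-sided p of 0.10.

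Which light chain made up the sum differed more. Slc7a6, an exchanger of cationic and neutral amino acids, held 46.5% ± 3.46 of the light-chain level in untreated WT and 17.6% ± 1.36 in untreated KO. Slc7a7, of the same substrate class, held 34.6% ± 5.14 and 7.93% ± 2.39, and Slc7a8, a further neutral exchanger, 12.4% ± 0.832 and 3.99% ± 0.970. Slc7a5 held 5.53% ± 1.64 in WT and 49.2% ± 0.874 in KO. The share of Slc7a11 was 0.299% ± 0.0201 in WT and 20.98% ± 2.33 in KO. In every untreated WT library Slc7a6 and Slc7a7 led, and in every untreated KO library Slc7a5 led. Slc7a11 was next in KO replicates 1 and 2, and in replicate 3 it was at 18.4%, just under Slc7a6 at 18.9%. The sum itself was larger in KO, so a lower share need not be a lower level. By edgeR, Slc7a6 was higher in untreated KO, with a log2 fold change of 0.61 (adjusted p 0.000147). Slc7a7 (-0.09, adjusted p 0.766) and Slc7a8 (0.39, adjusted p 0.297) did not pass the test.

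**Figure D3:**
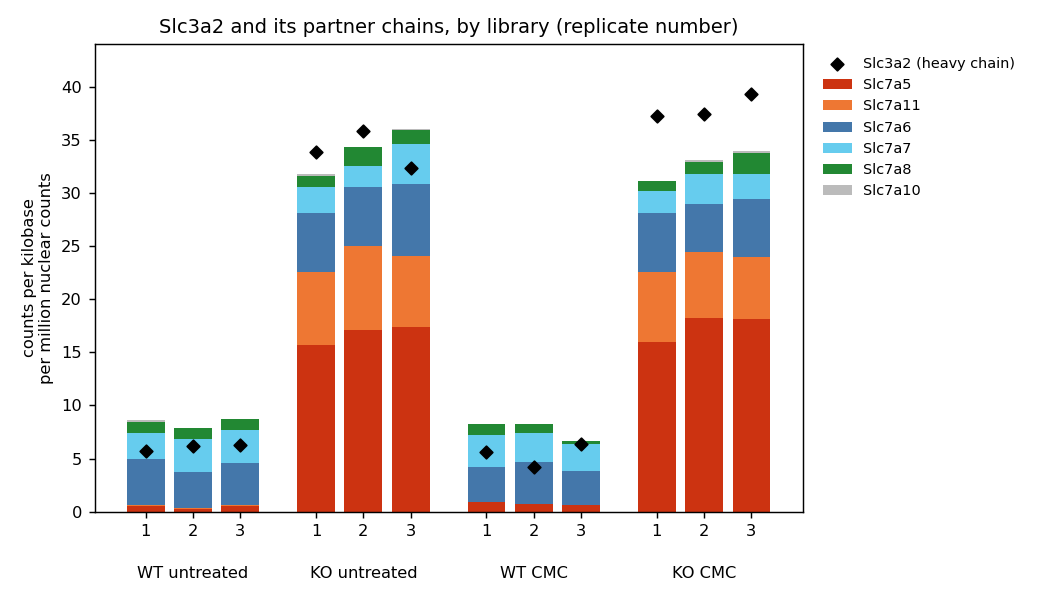
Stacked bars give the level of each light chain in each library, in counts per kilobase per 1000000 nuclear counts, and black diamonds the level of the heavy chain Slc3a2 in the same library. Bars of untreated WT libraries reach 7.86 to 8.69 and are mostly Slc7a6 and Slc7a7, and those of untreated KO libraries reach 31.8 to 36.0 and are mostly Slc7a5 and Slc7a11.

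A like shift was seen among the cationic carriers Slc7a1, Slc7a2 and Slc7a3. Their summed level was 4.16 ± 0.303 per kilobase per 1000000 in untreated WT and 18.9 ± 0.764 in untreated KO. Slc7a1 held 72.4% ± 2.72 of it in WT and 58.8% ± 0.618 in KO. Slc7a2 held 26.9% ± 1.71 and 3.26% ± 1.32, and Slc7a3 held 0.692% ± 1.199 and 37.9% ± 1.14. Slc7a2, an inducible cationic carrier abundant in liver, itself fell, with 28, 33 and 27 counts in WT and 13, 14 and 27 in KO, where the highest KO library reached the lowest WT library in counts (log2 fold change -0.84, SE 0.26, adjusted p 0.00238).

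Other plasma membrane and lysosomal amino acid transporters did not move in 1 direction. Of 44 such genes in the tables, 9 had 0 counts in all libraries, 6 had 1 to 9 counts over the 12 libraries, and 21 were tested in untreated hearts. Among these 8 were higher, 5 lower and 8 did not pass, with a median log2 fold change of 0.08, against 29.1% higher and 28.7% lower of all genes. DESeq2 called 5 higher and 3 lower, and without KO replicate 2 edgeR called 5 higher.

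Slc38a1, the paralog of Slc38a2 that carries glutamine, rose most, from 88, 82 and 96 counts in WT to 465, 399 and 422 in KO (log2 fold change 2.13, SE 0.10, adjusted p 1.24e-66). Slc1a1, a glutamate and cysteine carrier, rose by 0.94 on the log2 scale (SE 0.37, adjusted p 0.0172 by edgeR). Its counts were few, 9, 7 and 7 in WT and 13, 18 and 18 in KO. After CMC its log2 fold change of 0.25 did not pass the test (adjusted p 0.570). Slc43a3, listed with this family but known to carry purine bases, rose by 0.68. Slc38a7, a lysosomal glutamine carrier, rose by 0.66, the taurine carrier Slc6a6 by 0.62 and Slc7a6 by 0.61, all on the log2 scale. Slc36a2, a proton-coupled carrier of glycine and proline, fell most, from 120, 101 and 114 counts to 20, 20 and 26 (log2 fold change -2.48, SE 0.20, adjusted p 2.68e-34). Slc16a10, which lets aromatic amino acids out, had 96, 107 and 91 counts in WT and 45, 28 and 39 in KO, a log2 fold change of -1.53 (SE 0.16). Slc38a4 and Slc38a3, further sodium-coupled neutral carriers, fell by 0.71 and 0.28 on the log2 scale.

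The carriers feed pathways whose genes were listed beside them. Of 9 genes of cystine use and glutathione synthesis in the tables, 8 were tested in untreated hearts. Of these 7 were higher and 1 lower, where 29.1% and 28.7% of all genes tested were, with a median log2 fold change of 1.70. Only 6 genes of this list had enough counts to be tested between the WT groups. The rest entered the test of KO against WT through their KO counts, so the count and median are a description. Chac1, which degrades glutathione, had 4, 3 and 5 counts in WT and 297, 304 and 284 in KO, a log2 fold change of 6.02 (SE 0.41). Cth, which makes cysteine from cystathionine, rose by 3.36 and Txnrd1, a thioredoxin reductase that is a known NRF2 target, by 2.18 on the log2 scale. Of 14 genes of amino acid sensing and the integrated stress response, 11 were higher, 0 were lower and 3 missed the threshold. The median log2 fold change was 2.36, beside the same shares of 29.1% and 28.7% over all genes tested. Of this list 13 had enough counts to be tested between the WT groups, so the same limit applies. Asns, which makes asparagine, had 9, 11 and 10 counts in WT and 1002, 1075 and 1018 in KO, a log2 fold change of 6.53 (SE 0.26). Trib3, a pseudokinase induced by ATF4, had 2, 3 and 0 counts in WT and 127, 141 and 132 in KO, and Sesn2, a leucine sensor, rose by 4.05 on the log2 scale.

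LAT1 delivers leucine to the sensors of mTORC1, the kinase complex that ties growth to amino acid supply. Of 16 genes of leucine sensing and mTORC1 input, 14 were tested in untreated hearts, of which 8 were higher, 2 lower and 4 did not pass, with a median log2 fold change of 0.28. Over all genes tested 57.8% were called, 29.1% higher and 28.7% lower. The 10 calls among 14 genes are thus not far from the background in number, though more of them were higher than lower. Lars, the leucyl-tRNA synthetase of the cytosol, had 212, 216 and 199 counts in WT and 887, 856 and 868 in KO, a log2 fold change of 1.92 (SE 0.07). Lamtor3, a subunit of the lysosomal anchor of mTORC1, rose by 0.83, and Castor2, of the CASTOR family of arginine sensors, had a log2 fold change of -1.08 (SE 0.18).

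After CMC the same 8 carriers were higher in KO than in WT, and Slc1a5 again did not pass. Of 12198 genes tested, 54.0% were called, 27.2% higher and 26.8% lower, and the KO libraries lay above all WT libraries for 29.7% of genes and for these 8 members. The median log2 fold change of the 9 was 2.93, against -0.01 over all genes tested. This contrast uses other libraries of the same genotypes, and the count of members called higher was 8 also without WT replicate 3 after CMC.

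Slc7a11 had 1, 0 and 0 counts in WT and 290, 245 and 230 in KO after CMC, a ratio of 787 with a 95% counting interval of 141 to 31138. Slc7a3 had 0, 0 and 0 counts in WT and 87, 68 and 56 in KO, so KO was at least 72.4-fold higher, taking a floor of 3 counts over the WT group. Slc7a5 had 10, 8 and 7 counts in WT and 186, 193 and 187 in KO, a log2 fold change of 4.52 (SE 0.28, adjusted p 9.94e-20). The WT libraries of these 3 genes were again near the edge of detection, and no KO library overlapped them. Slc3a2 had 59, 47 and 66 counts in WT and 413, 377 and 387 in KO, a log2 fold change of 2.81 (SE 0.12). Slc7a1 had 106, 100 and 86 counts in WT and 370, 369 and 315 in KO, a log2 fold change of 1.89 (SE 0.10). Both were apart by several times the spread of their groups.

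After CMC, Slc38a2 had 442, 498 and 433 counts in WT and 1315, 1116 and 1152 in KO, a log2 fold change of 1.42 (SE 0.06). Slc1a4 had 15, 12 and 7 counts in WT and 97, 75 and 83 in KO, a log2 fold change of 2.93 (SE 0.27). Slc6a9 had 3, 7 and 6 counts in WT and 97, 99 and 90 in KO, a log2 fold change of 4.16 (SE 0.36). In each of these the lowest KO library was above the highest WT library. Slc1a5 had 69, 93 and 76 counts in WT and 68, 62 and 67 in KO, and its log2 fold change of -0.24 (SE 0.14, adjusted p 0.171) did not pass the test. Among the other transporters 22 were tested after CMC, of which 7 were higher and 6 lower by edgeR, and 4 and 3 by DESeq2. By edgeR 27.2% of all genes tested were higher and 26.8% lower. Leaving out 1 library at a time, WT replicate 3 after CMC among them, gave 5 to 7 other transporters higher and 4 to 6 lower.

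**Figure D4:**
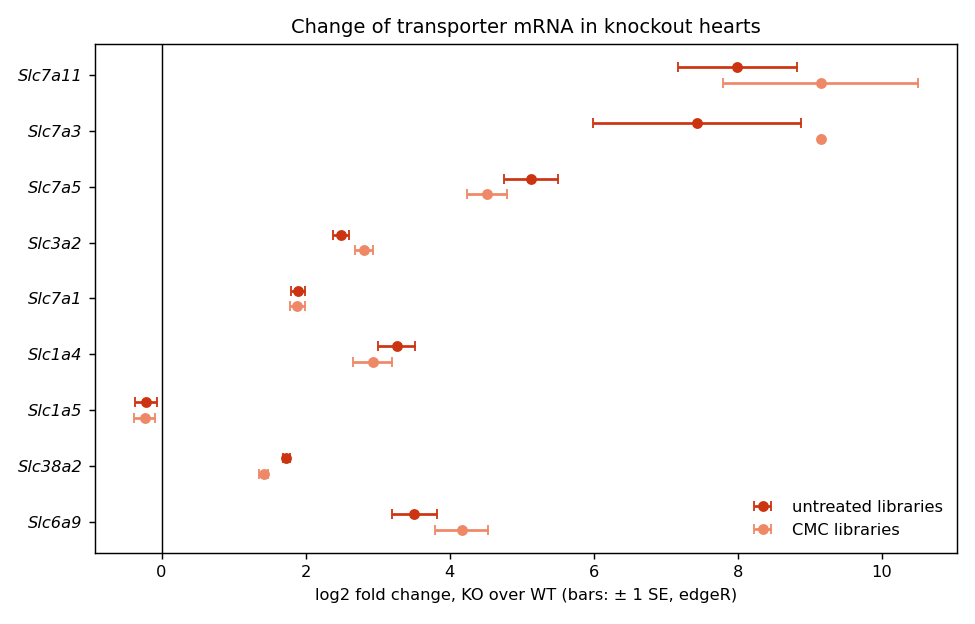
Log2 fold change of KO over WT for each carrier in untreated libraries (dark) and CMC libraries (light), with bars of 1 SE where one could be computed and a vertical line at 0. The 8 higher genes lie right of 0 in both, from 1.73 and 1.42 for Slc38a2 upward, and Slc1a5 lies just left of it. Slc7a3 after CMC has no bar because its WT libraries are all at 0. The place of that point is therefore not an estimate, and the counts give only a bound of at least 72.4-fold.

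For CMC itself, 0 of 5 carriers tested in WT and 2 of 9 in KO were called. In WT 5 of the 9 had enough counts to be tested, and 0 were called by edgeR, none of the 5 having an unadjusted p under 0.05, where 2.23% of 12099 genes were called, 0.967% higher and 1.26% lower. None of these 5 members lay wholly above or below its untreated libraries, where 9.26% and 9.75% of the genes tested did. The 270 genes called became 73 to 750 on leaving out 1 library, the highest without WT replicate 3 after CMC, and 85 with DESeq2. DESeq2 also called 0 of the members. In KO 2 of 9 were called lower after CMC and 0 higher, where 5.34% of 11967 genes were called lower and 6.77% higher. Slc38a2 went from 491.3 ± 3.08 to 407.3 ± 14.4 counts per 1000000 nuclear counts (n = 3 each), a log2 change of -0.28 (SE 0.04, adjusted p 6.82e-07), and all 3 CMC libraries lay below all 3 untreated ones. Slc1a4 went from 38.1 ± 2.05 to 28.95 ± 2.38 per 1000000, also without overlap, a log2 change of -0.40 (SE 0.12, adjusted p 0.0149). That call was lost with DESeq2, at an adjusted p of 0.143, and without untreated KO replicate 1 (0.0714) or CMC KO replicate 2 (0.107). In KO, 3 members lay wholly lower and 2 wholly higher after CMC, where 12.8% and 14.2% of the genes tested did. Those higher without overlap were Slc3a2, with a log2 change of 0.15 (adjusted p 0.120), and Slc1a5, with 0.23 (adjusted p 0.371), and neither passed the test. Besides both called genes, Slc7a11 lay wholly below its untreated libraries, with a log2 change of -0.19 (adjusted p 0.0839), which passed at 0.0453 without CMC KO replicate 1.

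Tested directly, the genotype difference changed with CMC for 1 of the 9 genes, where 1.49% of 12786 genes were called, 1.09% with a higher and 0.391% with a lower difference after CMC. These 190 genes became 78 to 621 on leaving out 1 library, the highest without WT replicate 3 after CMC. For Slc38a2 the log2 fold change of KO over WT was smaller after CMC by -0.30 (SE 0.08, adjusted p 0.0272). In KO its level fell with CMC, as given above, and in WT it was 148.4 ± 4.40 per 1000000 untreated and 151.6 ± 5.47 after CMC. The call was lost in 8 of 12 fits that left out 1 library each, with adjusted p-values up to 0.133, while without WT replicate 3 after CMC it was 0.00382 with a difference of -0.32.

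The genes most like Slc7a11 and Slc7a5 over the 12 libraries were sought among 12642 protein-coding genes by Pearson's r of log2 counts per 1000000. These genes share libraries and the 2 genotypes, and the values are given as a description. For Slc7a11 they were Atf6, an endoplasmic reticulum stress factor (0.998), Glul, glutamine synthetase (0.998), Otub2 (0.998), Slc7a1 (0.998) and Kctd6 (0.997). For Slc7a5 they were Sqstm1, the autophagy receptor p62 (0.998), Cilp (0.996), Agap1 (0.996), Adamtsl2 (0.996) and Flnc, filamin C of muscle (0.996).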

How the data were processed

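Heart RNA of wild-type (WT) mice and of Ptcd1 knockouts (KO) was measured in 12 libraries, grouped by genotype and CMC from the labels. The submitters' processing notes name mm10 as the genome, and as tools featureCounts 1.5.1, HISAT2 2.0.5, DESeq2 1.16.1 and SAMtools 1.5. The gene tables deposited by the authors hold raw counts per gene, with exon lengths, separately for untreated and CMC libraries. The authors' deposited comparison table gives a log2 fold change and p-values per gene, without naming a tool. Use of strand in counting: not given in the sources used here.

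Symbols came from the GENCODE M21 reference tables, and 51596 of 51911 features had one. The 36 mitochondrial features were left out of library sizes. Genes kept by filterByExpr were scaled by TMM and tested with edgeR 4.0.16 (R 4.3.3, limma 3.58.1), each comparison on its own 6 libraries and the difference of genotype effects on all 12, with p-values adjusted over all genes and called at 0.05; the code was first tested on simulated data. DESeq2 1.42.0 was an alternative. Standard errors are Wald errors of the fitted model. Levels are counts per 1000000 with TMM sizes over 12 libraries; levels and counts set across both tables assume that they were counted alike. Near-identical stretches (95% identity, 75 bases) came from blastn 2.17.0+ on the M21 transcripts. Intervals and floors cover counting error only.

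The members and gene lists were chosen with earlier results of these data known, and the grouping of light chains and of cationic carriers was chosen after values were seen. The named genes were all 9 members, the called other transporters with a mean of at least 5 counts and the largest changes (at most 6 each way), up to 3 called genes per list, and the 5 nearest genes of Slc7a11 and Slc7a5. The other deposited tables were not used here.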

Additional observations from a re-analysis of the deposited data

Results flagged for a closer look

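One difference between groups passed a test of the difference itself: the log2 fold change of Slc38a2 in KO over WT was 1.73 in untreated and 1.42 in CMC libraries, a difference of -0.30 (SE 0.08, edgeR quasi-likelihood contrast over all 12 libraries, adjusted p 0.0272). Over 17 alternative fits the adjusted p ran from 0.00382 to 0.133, and it missed the threshold in 8 of 12 that left out 1 library.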

How the results depend on the processing

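KO against WT kept direction and call for each of the 9 members under 12 alternatives each, in untreated (108 of 108) and in CMC libraries (108 of 108), and over all comparisons 497 of 527 member changes did. Without TMM the median log2 change of all genes moved from -0.00 to 0.12 in untreated libraries. Member levels were recomputed without TMM and without each library, and 139 of 144 values stayed within 1 SD. A mean of 3 libraries cannot move by 1 SD on leaving out 1, so only the values without TMM could move. Those that moved were Slc7a11 and Slc38a2 in untreated WT and Slc7a3, Slc7a1 and Slc38a2 in untreated KO. With DESeq2, other transporters called were 5 higher and 3 lower untreated and 4 and 3 after CMC; genes called by CMC were 85 in WT (270 by edgeR) and 509 in KO (1449), with 1 member called in KO, and 104 for the difference (190). A fit of all 12 libraries called 436 genes for CMC in WT. Leaving out 1 library gave 5 to 8 other transporters higher (untreated), 73 to 750 genes for CMC in WT and 78 to 621 for the difference, the highest of both without WT replicate 3 after CMC. It gave 1 to 3 members called for CMC in KO and 0 to 1 for the difference. Values that changed sign did not pass the test: in leave-one-out fits the log2 change ran from -0.0149 to 0.155 for Slc6a9 with CMC in KO, from -0.33 to 0.16 for Slc1a4 and from -0.000388 to 0.0534 for Slc38a2 with CMC in WT, and the difference of effects from -0.16 to 0.13 for Slc1a5, from -0.0544 to 0.0822 for Slc7a1 and from -0.18 to 2.20 for Slc7a3. The Slc7a1 difference was -0.00134 with TMM over all genes and -0.0459 without TMM. The cause of these changes was not tested. With the replicate number as a block, 8 members were called higher in untreated and 8 in CMC libraries, and the block changed no member's call in any of the 5 comparisons. Deviations from the group means in libraries with the same number correlated from -0.125 to 0.0688 over 6760 genes, which gives no sign of pairing at this near-counting spread and does not show that same-numbered libraries come from different hearts. Depth limits Slc7a11, Slc7a3, Slc7a5 and Slc6a9 in WT, where libraries held 0 to 10 counts.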
